A study of Mus musculus with 4 samples.

Results

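The T-box genes described here are Tbx1, Tbx2, Tbx3, Tbx4, Tbx5, Tbx10, Tbx15, Tbx18, Tbx20 and Tbx22, 10 of the 24771 features listed in an RNA-seq comparison of salivary gland (SG) placodes grown from mouse embryonic stem cells with embryonic submandibular glands (SMGs). They were found by exact match of the gene symbol, and all 10 were listed once. The genes were selected on their measured levels in this same comparison, so their values are given as a description and no p-value is attached to them. There were 2 samples of PSC-derived SG placodes and 2 samples of SMGs from mouse embryos at E12.5. The placodes came from a mouse embryonic stem cell line, 129w2, and were collected on day 10. Aggregates of 3000 cells were grown with 2% Matrigel and received BMP4 at 2 ng/ml on day 3 and retinoic acid at 1 μM together with bFGF at 25 ng/ml on day 4. From day 6 the medium held 200 ng/ml FGF10. Both placode samples had the same factors, so the effect of any 1 factor cannot be told apart from the others. The strain, sex and dissection of the SMGs, the number of embryos or aggregates behind a sample, and whether the samples of a group came from separate cultures or litters are not given in the sources used here. The p-values below therefore measure the spread between these samples, which may be technical.

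T-box factors are transcription factors that share a DNA-binding domain, the T-box, and act as activators or repressors of their target genes. The family sets up organ fields and tissue layers in the embryo. Tbx1 acts in the pharyngeal apparatus, from which the lower face and its glands are built, Tbx2 and Tbx3 are mainly repressors, Tbx4 and Tbx5 serve hindlimb, forelimb, lung and heart, and Tbx15, Tbx18 and Tbx22 act largely in mesenchyme. Expression was measured as FPKM, the fragments mapped to a gene scaled to transcript length and to the mapped fragments of the sample. This allows levels of different genes in a sample to be set side by side. Between samples the comparison is less exact, since FPKM values did not sum to the same total in each sample.

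To show what the members have in common, a stretch of 60 coding bases near the start of the T-box is printed for each gene 5′ to 3′, with capitals for bases that were identical in all 10 members. The sequences are coding sequences of the GENCODE M21 transcripts on GRCm38.
Tbx1: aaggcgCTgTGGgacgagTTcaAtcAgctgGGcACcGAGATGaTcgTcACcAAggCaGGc
Tbx2: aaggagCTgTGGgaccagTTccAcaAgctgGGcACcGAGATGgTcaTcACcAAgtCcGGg
Tbx3: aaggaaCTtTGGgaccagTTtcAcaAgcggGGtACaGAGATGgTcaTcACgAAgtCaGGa
Tbx4: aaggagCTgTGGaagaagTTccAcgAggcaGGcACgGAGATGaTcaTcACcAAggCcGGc
Tbx5: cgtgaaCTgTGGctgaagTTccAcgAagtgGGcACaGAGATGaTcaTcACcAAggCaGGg
Tbx10: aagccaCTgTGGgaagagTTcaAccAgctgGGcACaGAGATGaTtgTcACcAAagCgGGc
Tbx15: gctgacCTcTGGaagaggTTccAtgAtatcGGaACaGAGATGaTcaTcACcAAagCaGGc
Tbx18: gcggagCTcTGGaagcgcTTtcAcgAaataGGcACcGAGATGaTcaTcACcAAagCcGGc
Tbx20: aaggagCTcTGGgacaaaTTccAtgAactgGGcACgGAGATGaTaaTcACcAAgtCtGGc
Tbx22: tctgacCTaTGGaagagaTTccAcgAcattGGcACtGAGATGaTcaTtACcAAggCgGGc
In this stretch 28 of the 60 bases were shared by all 10 genes, and any pair of members differed at 8 to 24 positions. The stretch was picked as the one with the most shared bases in the longest gap-free block of the aligned genes. Its share is therefore high by choice. The stretch lay at chr16:18586538-18586597 on the minus strand in Tbx1, at chr11:85833440-85833499 in Tbx2, at chr5:119672343-119672402 in Tbx3 and at chr11:85890890-85890949 in Tbx4, the last 3 on the plus strand. It lay at chr5:119838729-119838788 in Tbx5, at chr19:3996735-3996794 in Tbx10, at chr3:99308982-99309041 in Tbx15 and at chrX:107677716-107677775 in Tbx22, all on the plus strand. For Tbx18 it lay at chr9:87729463-87729522 and for Tbx20 at chr9:24770682-24770741, both on the minus strand. The choice was limited to stretches inside 1 coding exon in each gene.

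Over the 258 codons held by all 10 members, the closest relatives were Tbx4 and Tbx5 with 70.3% identical bases, Tbx2 and Tbx3 with 70.2%, Tbx1 and Tbx10 with 70.0%, and Tbx15 and Tbx18 with 69.5%. Tbx22 was nearest to Tbx15 at 62.4%, and Tbx20 was nearest to Tbx15 at 58.0%. Of 45 pairs of members, 0 shared an exact run of 50 bases in any annotated transcript, so long stretches on which reads could be exchanged between members were not found. Tbx2 and Tbx4 lie close together on chromosome 11 with 44473 bases and 1 annotated protein-coding gene between them, and Tbx3 and Tbx5 lie on chromosome 5 with 147943 bases and no annotated protein-coding gene between them. Exons of Tbx3 overlap an annotated antisense gene, Tbx3os1, and exons of Tbx18 overlap D030062O11Rik on the other strand. The strandedness of the libraries is not given in the sources used here, so reads of these overlapping genes cannot be told apart.

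For the 10 members, which were selected on their levels in this comparison, the summed FPKM was higher in the SMGs. It was 65.5 and 63.8 in the SMG samples and 15.8 and 15.9 in the placode samples. Tbx2 and Tbx3 together made up 76.2 and 78.3% of this sum in the SMGs, against 52.1 and 54.7% in the placodes, where Tbx15 contributed 32.0 and 30.1%. In bulk samples such as these, fewer cells of a type and less RNA per cell cannot be told apart. An FPKM of at least 1 was reached by 6 and 5 members in the SMG samples and by 4 members in each placode sample. Of the 10 members, Tbx2 and Tbx3 alone reached values of at least 10, in the SMG samples.

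**Figure D1:**
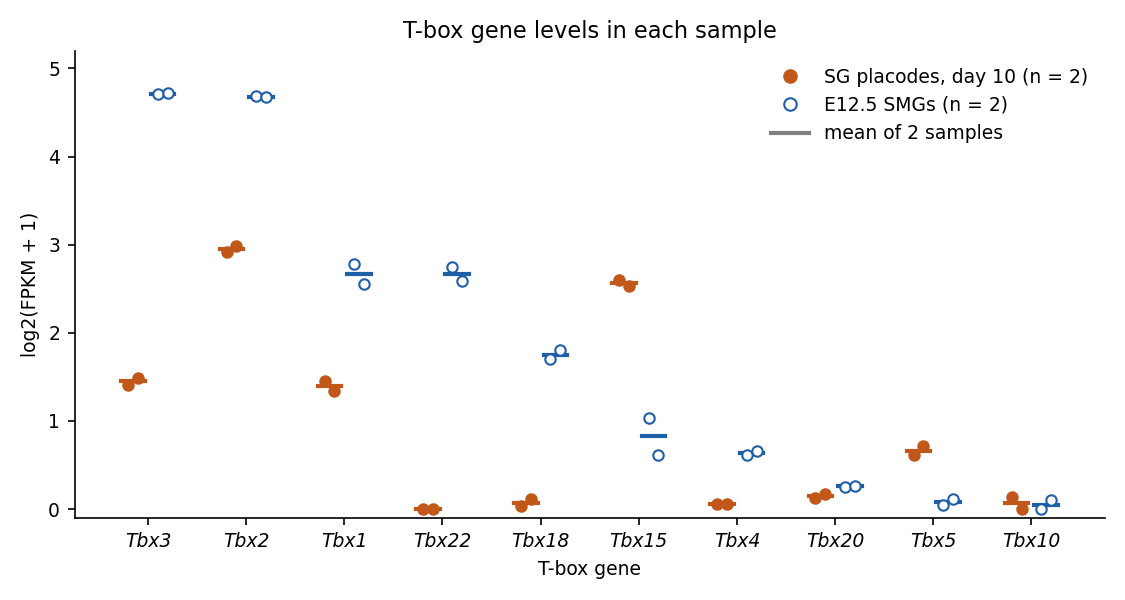
Levels of the 10 T-box genes as log2(FPKM + 1), ordered by their mean FPKM in the SMGs. Filled points are the 2 SG placode samples, open points the 2 E12.5 SMG samples, and bars the mean of each group. Tbx3, Tbx2, Tbx1, Tbx22, Tbx18, Tbx4 and Tbx20 sat higher in both SMG samples, and Tbx15 and Tbx5 sat higher in both placode samples.

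Averaged over the 4 samples, 6 members were at 1 FPKM or more (Tbx1, Tbx2, Tbx3, Tbx15, Tbx18 and Tbx22), and Tbx4, Tbx5, Tbx10 and Tbx20 were below this level. On the scale of log2(FPKM + 1), 5 of the 6 were lower in the placodes by at least 2-fold, where 15.3% of all 13193 features above this level were, and 1 was at least 2-fold higher, where 14.2% of those features were. Because the genes were chosen by this contrast, and genes low in one group enter through the other, nothing is read from these counts.

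Tbx3 is a repressor that is known for its part in limb, heart and mammary gland development. It was measured at 1.65 and 1.81 FPKM in the placodes, against 25.1 and 25.4 in the SMGs. The groups were far apart, with a ratio of mean FPKM of 14.6 in favour of the SMGs and a log2 difference, placodes minus SMGs, of -3.27 (standard error 0.08). Tbx3 (ENSMUSG00000018604) lies on chromosome 5 of GRCm38 from 119670669 to 119684724 on the plus strand. Tbx2, its closest relative and also a repressor, had FPKM values of 6.55 and 6.90 in the placodes, against 24.8 and 24.5 in the SMGs, a ratio of mean FPKM of 3.67 and a log2 difference of -1.73 (standard error 0.06). Tbx2 (ENSMUSG00000000093) lies on chromosome 11 from 85832551 to 85841948 on the plus strand. The placode and SMG values of Tbx2 did not overlap, but Tbx2 was the most abundant member in the placodes.

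The balance of this pair differed between the groups. Tbx2 and Tbx3 were at nearly equal levels in the SMGs, with a ratio of Tbx2 to Tbx3 of 0.987 and 0.965, whereas the ratio was 3.97 and 3.82 in the placodes. A ratio within a sample does not depend on how the samples are scaled against each other.

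Tbx1, a regulator of the pharyngeal arches and their muscle precursors, had FPKM values of 1.74 and 1.53 in the placodes, against 5.88 and 4.89 in the SMGs. The lowest SMG value stood above the highest placode value, with a ratio of mean FPKM of 3.30 and a log2 difference of -1.28 (standard error 0.12). Tbx1 (ENSMUSG00000009097) lies on chromosome 16 from 18580979 to 18590671 on the minus strand. Tbx10, its closest relative among the members, was listed at 0 in 1 sample of each group, with 0.103 in the other placode sample and 0.0734 in the other SMG sample. For Tbx10 (ENSMUSG00000037477), on chromosome 19 from 3992752 to 3999512 on the plus strand, the groups overlapped.

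Tbx15, Tbx18 and Tbx22 are related by sequence, and their levels went in different directions. Tbx15, which acts in dermal and skeletal mesenchyme, had FPKM values of 5.04 and 4.79 in the placodes, against 1.05 and 0.528 in the SMGs. It was the only member above the mean FPKM of 1 with higher values in the placodes, with a ratio of mean FPKM, placodes over SMGs, of 6.23 and a log2 difference of 1.74 (standard error 0.16), or 2.70 at a pseudocount of 0.01. Its SMG samples also differed from each other. The 8 skeletal muscle markers described below were likewise higher in SMG sample 1, with summed FPKM of 81.4 and 54.4, and their part in the Tbx15 value was not tested.

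Tbx18 is known from epicardium, ureter mesenchyme and somites. It had FPKM values of 0.0222 and 0.0839 in the placodes, against 2.25 and 2.49 in the SMGs, a log2 difference of -1.68 (standard error 0.12). With placode values this low the size rests on the pseudocount, and it was -4.04 at a pseudocount of 0.1 and -5.43 at 0.01. Tbx22, a gene of the palatal shelves whose loss causes X-linked cleft palate, reached FPKM values of 5.69 and 5.02 in the SMGs, while both placode samples listed it at 0, so no fold is given. Both genes were thus at or near 0 in the placodes and clearly above that in the SMGs.

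The summed FPKM of these 3 genes was 5.06 and 4.87 in the placodes and 8.99 and 8.04 in the SMGs. Of this sum, Tbx15 accounted for 99.6 and 98.3% in the placodes and for 11.7 and 6.57% in the SMGs. Tbx15 (ENSMUSG00000027868) lies on chromosome 3 from 99240381 to 99354259 on the plus strand, Tbx18 (ENSMUSG00000032419) on chromosome 9 from 87702800 to 87731260 on the minus strand, and Tbx22 (ENSMUSG00000031241) on chromosome X from 107667964 to 107688978 on the plus strand.

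**Figure D2:**
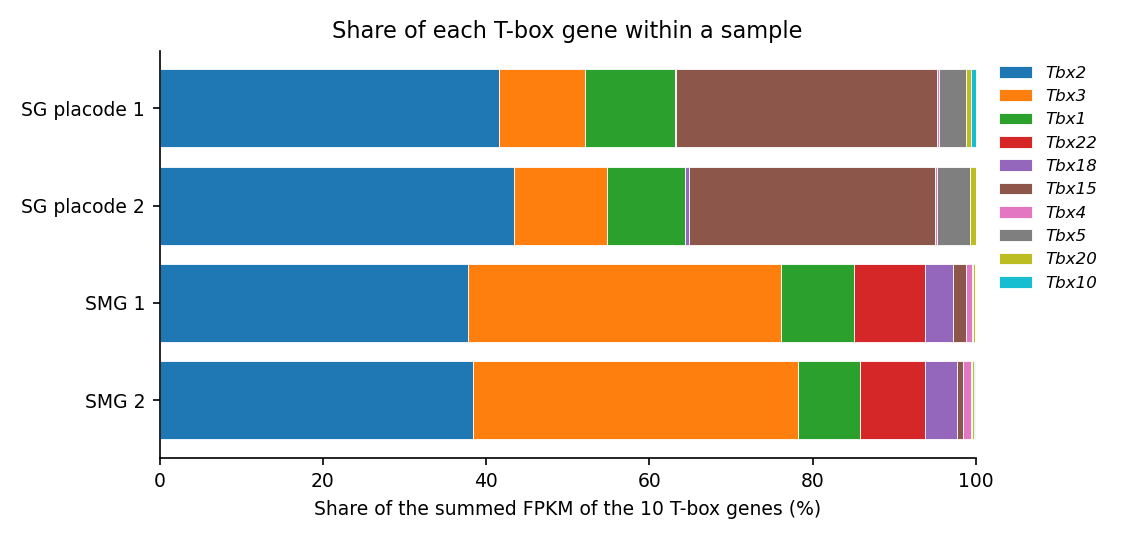
Share of each T-box gene in the summed FPKM of the 10 members, in percent, with a bar for each sample. Tbx2 and Tbx3 fill 76.2 and 78.3% of the SMG bars, while Tbx15 fills 32.0 and 30.1% of the placode bars.

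Tbx4 and Tbx5, the pair known for limb identity, were low in all samples. Tbx4 had FPKM values of 0.0391 and 0.0375 in the placodes, against 0.524 and 0.582 in the SMGs. Tbx5 went the other way, with 0.524 and 0.644 in the placodes against 0.0308 and 0.0818 in the SMGs. The ratio of Tbx4 to Tbx5 was accordingly 0.0746 and 0.0582 in the placodes and 17.0 and 7.11 in the SMGs. The depth of the samples is unknown, so no counting error can be given for values this low. Tbx4 (ENSMUSG00000000094) lies on chromosome 11 from 85886422 to 85916097 and Tbx5 (ENSMUSG00000018263) on chromosome 5 from 119832668 to 119885219, both on the plus strand.

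Tbx20, which acts in heart and in cranial motor neurons, had FPKM values of 0.0868 and 0.124 in the placodes, against 0.192 and 0.201 in the SMGs. The SMG values were the higher ones, but all 4 were below 1, and the log2 difference was -0.11. Tbx20 (ENSMUSG00000031965) lies on chromosome 9 from 24718138 to 24774303 on the minus strand.

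**Figure D3:**
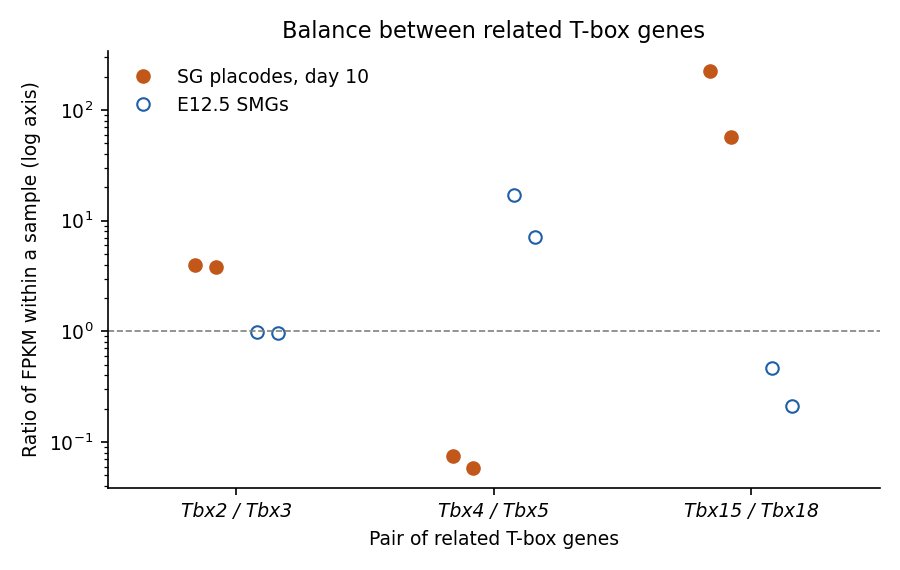
Ratio of FPKM between related T-box genes within each sample, on a log axis, with a dashed line at equal levels. For Tbx4 to Tbx5 and Tbx15 to Tbx18 the placode and SMG points lie on opposite sides of the line, and for Tbx2 to Tbx3 the SMG points lie at 0.987 and 0.965.

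Within the SMGs, the order of FPKM from the highest was Tbx3, Tbx2, Tbx1, Tbx22, Tbx18, Tbx15, Tbx4, Tbx20, Tbx5 and Tbx10. The values of the neighbours Tbx1 and Tbx22 overlapped, at 5.39 ± 0.703 and 5.36 ± 0.475 (SD, n = 2), as did those of Tbx15 and Tbx4, and of Tbx5 and Tbx10. Tbx3 and Tbx2, at 25.3 ± 0.196 and 24.7 ± 0.207 (SD, n = 2), were close but did not overlap. Within the placodes, Tbx2 at 6.73 ± 0.245 and Tbx15 at 4.92 ± 0.179 (SD, n = 2) led the order, and Tbx3 and Tbx1 followed with overlapping values of 1.73 ± 0.112 and 1.63 ± 0.150 (SD, n = 2). Tbx5 came next, and the remaining members were at 0.124 or below in both placode samples.

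The genes with the profile most like that of Tbx3 over the 4 samples, by Euclidean distance of log2(FPKM + 1), were Wdr86 (0.083), Ccdc102a (0.145) and Etv4 (0.206), and those most like Tbx2 were Tnfaip8 (0.117), Fbn2 (0.132) and Ivd (0.163). With 2 groups of 2 samples, such closeness describes little more than the 2 group means.

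The other T-box family genes were mostly near 0 in both groups. Of T (brachyury), Tbr1, Eomes, Tbx6, Tbx19, Tbx21 and Mga, Mga was the only one with a mean FPKM of at least 1. Mga, which joins a T-box to a domain that binds Max, had FPKM values of 12.4 and 12 in the placodes, against 12.8 and 12.6 in the SMGs (log2 difference -0.06, standard error 0.06, limma adjusted p = 0.427). It was not called, so 0 of 1 tested genes of this list were called by limma, also at an unadjusted p below 0.05. T, which marks nascent mesoderm, was at 0.0268 and 0 in the placodes and 0.500 and 0.324 in the SMGs. Tbx6, a gene of paraxial mesoderm, was at 0.447 and 0.283 in the placodes and 0.948 and 0.264 in the SMGs, with overlapping groups. Tbx21, known from T lymphocytes, was at 0.132 and 0.145 in the placodes and 0.0253 and 0 in the SMGs. Tbr1 and Eomes, known from the developing cortex, were below 0.25 in every sample, and Tbx19, known from the pituitary, was listed at 0 in all 4.

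Genes that work around the T-box factors were tested with limma, fitted to all 13193 features with a mean FPKM of at least 1, with two-sided p-values and Benjamini-Hochberg adjustment. Over all of these features, 35.7% were called higher and 40.4% lower in the placodes at an adjusted p below 0.05, so a call alone says little about a list. For a gene on its own, 0.333 is the smallest p-value that exact permutation allows with 2 samples a group.

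Among 12 regulators known to act upstream of T-box genes, 11 were tested, 2 rose and 7 fell in the placodes (18.2 and 63.6%), with a median log2 difference of -1.09 against -0.05 over all tested features. Pitx1, an oral ectoderm and hindlimb factor that acts ahead of Tbx4, had FPKM values of 0.539 and 0.429 in the placodes, against 245 and 253 in the SMGs (log2 difference -7.40, standard error 0.06, adjusted p = 4.10e-08). Aldh1a2, which makes the retinoic acid needed for Tbx5 in the limb, fell from 60.8 and 68.5 in the SMGs to 3.61 and 2.88 in the placodes (adjusted p = 6.71e-07). Foxc1, a forkhead factor upstream of Tbx1, also fell, with a log2 difference of -2.42, as did the ligands Bmp4 and Bmp2, with -1.68 and -1.09. The BMP ligands are known inducers of Tbx2 and Tbx3. The placodes were given BMP4 protein and retinoic acid, which the FPKM of Bmp4 and Aldh1a2 does not measure. A link of these regulators to the T-box levels was not tested.

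Shh, the hedgehog ligand upstream of Tbx1 in the pharynx, rose from 0 and 0.0735 in the SMGs to 2.59 and 2.92 in the placodes (log2 difference 1.86, standard error 0.12, adjusted p = 2.35e-05), and Smad1, which carries the BMP signal, rose by 0.80 (adjusted p = 4.00e-05). Leaving out either placode sample put the mean FPKM of Shh below 1 (0.996 and 0.888), so that 1 gene of the list was called higher in place of 2. Without either SMG sample, 3 genes were. Foxa2 was not tested, with an FPKM of 1.32 and 1.98 in the placodes and 0.0296 and 0 in the SMGs. Foxc2 and Smad5 were not called (adjusted p = 0.981 and 0.105).

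Of 19 partners and corepressors of T-box factors, 14 were tested, 7 rose and 6 fell (50 and 42.9%), with a median log2 difference of 0.24. Among the factors that join T-box proteins in heart and arch, Hand2 fell from 19.8 and 18.5 in the SMGs to 0.0631 and 0.268 in the placodes (log2 difference -4.12, standard error 0.12, adjusted p = 9.25e-07). Mef2c fell from 14.4 and 11.4 to 0.335 and 0.599 (adjusted p = 6.00e-06), and Gata6 fell by 3.17 on the log2 scale. Nkx2-5 was below the level for testing, at 0.0404 and 0 in the placodes and 1.65 and 0.885 in the SMGs, and Gata4 was below 0.2 in every sample.

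The Groucho corepressors, which several T-box repressors recruit, did not move together. Tle2 fell from 34.3 and 34.7 in the SMGs to 0.816 and 1.21 in the placodes (log2 difference -4.15, standard error 0.11, adjusted p = 6.99e-07). Tle1 rose from 20.4 and 17.5 to 50.5 and 53.2 (adjusted p = 1.38e-05), and Tle3 and Tle4 rose by 0.80 and 0.56. Ripply3, a corepressor of Tbx1, fell from 1.99 and 1.91 to 0.658 and 1.08 (adjusted p = 5.50e-03). Ripply2 was at 0.975 and 1.36 in the placodes, with both SMG samples at 0, and Ripply1 was listed at 0 in all 4 samples.

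Pax3, a somite and dorsal neural tube factor that binds Tbx18, showed the largest rise of this list, from 0.306 and 0.473 in the SMGs to 20.3 and 20.5 in the placodes (log2 difference 3.95, standard error 0.10, adjusted p = 6.12e-07). Chd7, the chromatin remodeller that acts with Tbx1, rose from 5.10 and 4.64 to 32.4 and 33.2 (adjusted p = 8.06e-07). Hdac2 was the most abundant gene of the list in both groups, with 183 and 178 in the placodes and 131 and 129 in the SMGs.

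**Figure D4:**
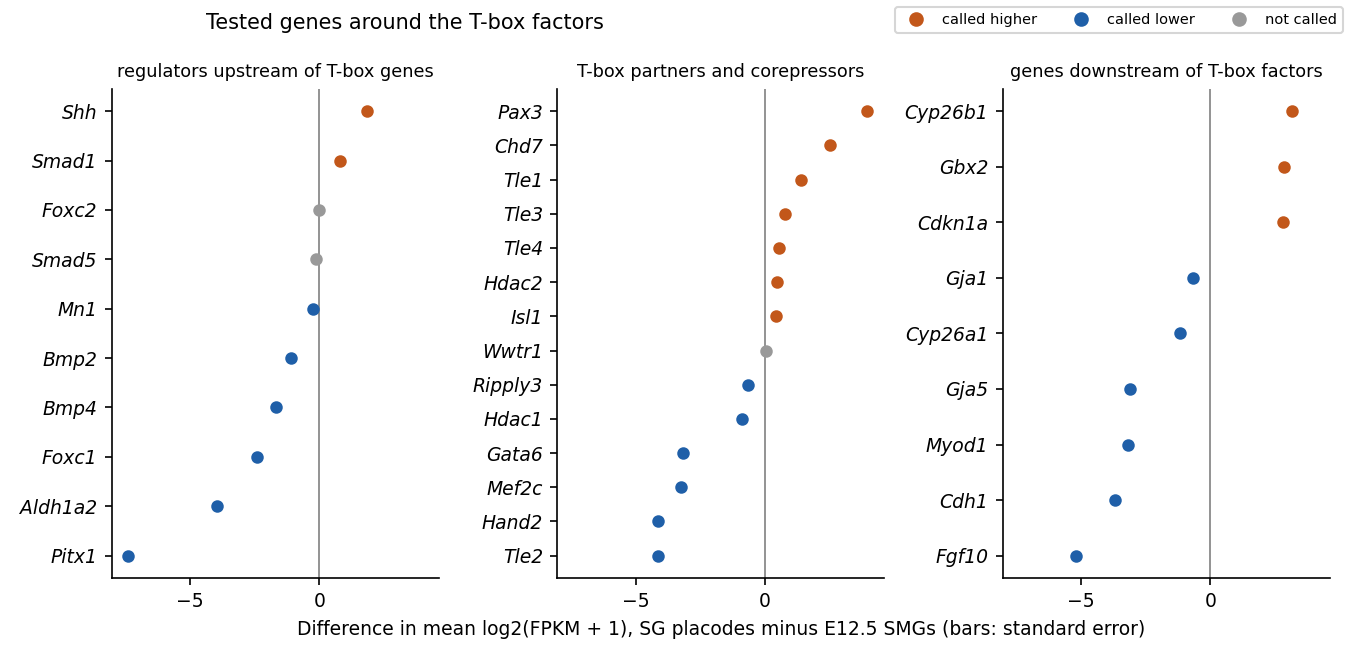
Difference in mean log2(FPKM + 1), placodes minus SMGs, of tested genes in 3 lists around the T-box factors, without those that are not reported here, with standard errors that are mostly smaller than the points. Orange marks genes called higher, blue genes called lower and grey genes not called at an adjusted p below 0.05, and Pitx1 at -7.40 and Pax3 at 3.95 are the ends of the range.

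Of 16 genes known to lie downstream of T-box factors, 10 were tested, 3 rose and 6 fell (30 and 60%), with a median log2 difference of -0.92. Fgf10, which Tbx4, Tbx5 and Tbx1 are known to activate and which is itself a salivary mesenchyme signal, fell from 45.5 and 46.1 in the SMGs to 0.465 and 0.123 in the placodes (log2 difference -5.19, standard error 0.14, adjusted p = 6.54e-07). The placodes were grown with added FGF10 protein, which the FPKM of the gene does not measure. Cdh1, which encodes E-cadherin and is repressed by Tbx2 and Tbx3, was lower in the placodes, at 1.11 and 1.18 against 28.2 and 24.7 (adjusted p = 6.41e-07). Tbx2 and Tbx3 were lower there too. A link between T-box levels and Cdh1 or any other downstream gene was not tested. Myod1, a muscle factor downstream of Tbx1 in the arches, fell from 10.1 and 6.99 to 0 and 0.0648 (adjusted p = 1.11e-05). The connexin gene Gja5, a Tbx5 target in the heart, fell by 3.11 on the log2 scale.

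Cyp26b1, which breaks down retinoic acid, rose from 10.4 and 9.13 in the SMGs to 99.6 and 92.7 in the placodes (log2 difference 3.17, standard error 0.08, adjusted p = 4.99e-07), whereas Cyp26a1 fell from 3.59 and 4.39 to 1.21 and 1.21 (adjusted p = 1.88e-04). Gbx2 rose from 0 and 0.0735 to 5.85 and 7.06 (adjusted p = 5.09e-06). Cdkn1a, the cell cycle inhibitor p21 that Tbx2 and Tbx3 repress, rose from 7.12 and 4.32 to 49.0 and 42.3 (log2 difference 2.82, standard error 0.19, adjusted p = 3.07e-05). Cdkn2a, another cell cycle inhibitor under Tbx2 and Tbx3, was at 0.895 and 0.908 in the placodes with both SMG samples at 0, below the level for testing. Nppa, Fgf8, Myf5 and Cyp26c1 were not tested.

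The letters AGGTGTGA, the core letters bound by T-box factors, or their reverse complement TCACACCT, were looked for in RefSeq promoters of GRCm38.p6. Each promoter ran from 250 bases before to 50 bases after an annotated start site, which can lie inside a gene. The letters occurred in 419 of 32851 promoters (1.28%). Of the members, Tbx1, Tbx4, Tbx10, Tbx18, Tbx20 and Tbx22 were matched with 9 promoters, and 0 held these letters. Tbx2, Tbx3, Tbx5 and Tbx15 were not matched. The Tbx4 promoter, at chr11:85896515-85896814, lay inside the gene, as did some of those of Tbx1 and Tbx22. Of 13 promoters of 11 downstream genes, 2 held the letters, those of Nppa and Cdkn1a, and 30 bases around each match are shown, on the gene's strand and with the match in capitals.
Nppa: TCACACCTttgaagtgggggcctcttgagg
Cdkn1a: cagcagccgagAGGTGTGAgccgccgcggt
The stretch of Nppa lies at chr4:148000472-148000501 on the plus strand, with the match at the far end of the window, and that of Cdkn1a at chr17:29093771-29093800 on the plus strand, with the match 13 bases after the start. Nppa, the atrial peptide gene that Tbx5 activates and Tbx2 and Tbx3 repress, had FPKM values of 0.206 and 0.0878 in the placodes, against 0 and 0.0833 in the SMGs. A match describes letters in a window and is not evidence of binding.

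The samples also differed in cell type markers, which are given here for the whole lists. All 11 salivary epithelium markers were at 1 FPKM or more in both SMG samples, and 6 were in both placode samples. Of the 11, 2 rose and 8 fell in the placodes. Krt5, Krt14 and Krt15, the basal keratins of this epithelium, were listed at 0 there, whereas Krt19 rose (14.7 and 15.8 against 9.78 and 6.53, adjusted p = 0.00363) and Krt8, at 34.4 and 35.6 against 36.1 and 28.3, was not called (adjusted p = 0.322). The markers thus did not all go with the label, and placode is used here as the name of the group. Sox9, the most abundant marker of this list in the placodes, was higher there, at 42.1 and 43.0 against 9.31 and 7.66. Mesenchyme markers, the tissue of several T-box genes, summed to 185 and 184 in the placodes and 1691 and 1657 in the SMGs, and 9 of 9 tested fell, but 8 of 10 still reached 1 FPKM in each placode sample. Col3a1, a collagen gene and the most abundant of them, was at 83.3 and 79.8 in the placodes and 881 and 849 in the SMGs. Neural ectoderm markers summed to 971 and 999 in the placodes and 107 and 98.2 in the SMGs, and 8 of 8 rose, with the neuronal tubulin gene Tubb3 at 345 and 365 against 41.6 and 37.1. Their part in the T-box values was not tested. Some genes stand in a marker list and in a list around the T-box factors: Pitx1 and Cdh1 (epithelium), Fgf10 (mesenchyme), Myod1 and Myf5 (skeletal muscle), Nppa (cardiac muscle) and Isl1 (motor neurons).

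Cranial motor neuron markers, the neurons that use Tbx20, summed to 20.4 and 19.5 in the placodes and 22.5 and 20.3 in the SMGs. Of 5 tested, 3 rose and 1 fell. Cardiac muscle markers summed to 0.503 and 0.445 in the placodes and 22.2 and 15.4 in the SMGs, and 2 of 2 tested fell. These 2, Tnnt2 and Actn2, held most of the SMG sum, with Actn2 at 9.01 and 5.9. The heart genes Myl7 and Myl2 were listed at 0 in both placode samples. In the SMGs, Myl2 was at 0 in both samples, Myl7 at 0 and 0.084, Myh6 at 0.814 and 0.744, and Myh7 at 1.41 and 1.05. Whether the SMG sum came from heart or from other muscle was not tested. Skeletal muscle markers summed to 0.508 and 0.444 in the placodes, and 6 of 6 tested fell. Myog, a muscle differentiation factor, and Tnnt2, a cardiac troponin, were the most abundant of these lists in the SMGs, with 28.3 and 21.2 for Myog and 10.4 and 7.09 for Tnnt2, and both were listed at 0 in the placodes. Endothelial markers (9.75 and 9.20 against 101 and 107, 5 of 5 fell), blood markers (0.0258 and 0.275 against 2164 and 2068, 3 of 3 fell) and pericyte markers (27.7 and 28.5 against 34.4 and 34.9, 3 of 4 fell and Notch3 rose) were also lower in sum in the placodes. The pericyte sums were mostly Notch3, at 26.9 and 27.8 in the placodes and 21.2 and 21.3 in the SMGs. The endothelial sums in the placodes were mostly Cdh5, at 8.07 and 7.6 there and 30.3 and 35.4 in the SMGs. All other endothelial markers were below 1 FPKM in both placode samples. The SMG samples thus held transcripts of muscle, vessel and blood beside epithelium and mesenchyme, and Tbx genes used by those tissues were measured in that mixture.

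**Figure D5:**
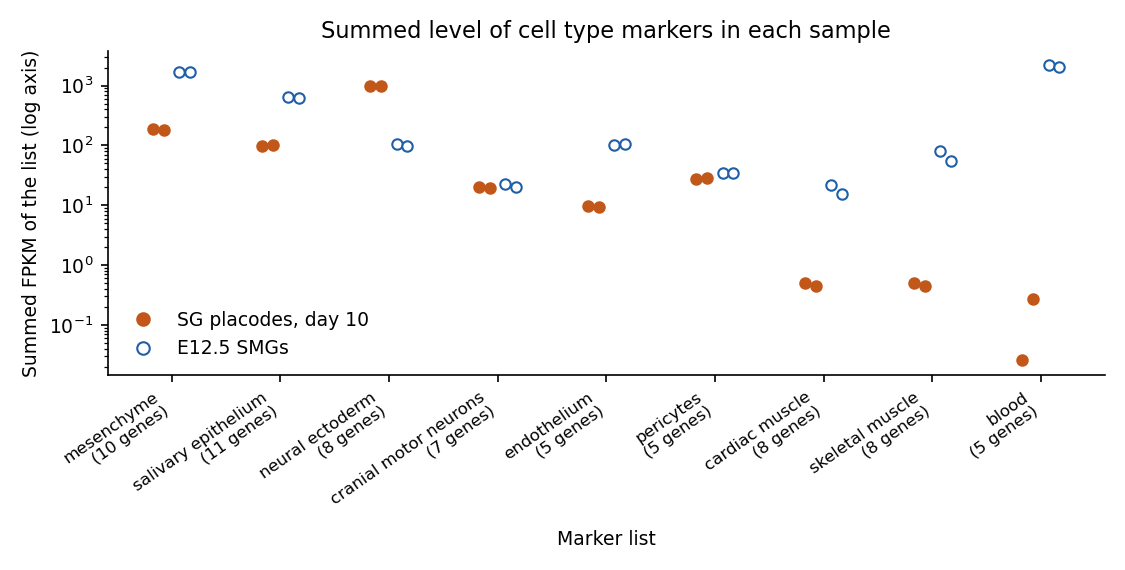
Summed FPKM of 9 cell type marker lists in each sample, on a log axis. Filled points are the SG placode samples and open points the E12.5 SMG samples, and the mesenchyme list stands at 185 and 184 against 1691 and 1657.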

How the data were processed

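RNA of 2 samples of PSC-derived SG placodes and 2 samples of E12.5 SMGs was sequenced, as paired-end reads for the placodes. Samples were grouped by their titles. The authors mapped the reads with HISAT2 and deposited 1 FPKM value per gene and sample. The submitters' processing notes name GRCm38 and GRCh38, and the annotation, the program behind FPKM, its versions and the strandedness are not given in the sources used here. FPKM values summed to between 361963 and 384773 per sample, and the depth of the samples is unknown. Between 6618 and 7164 features per sample were listed at 0.

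All tests used log2(FPKM + 1). The test was limma 3.58.1 under R 4.3.3 (eBayes with trend, group as the only term) on features averaging 1 FPKM or more over the samples. It gave two-sided p-values with Benjamini-Hochberg adjustment. The procedure was also run on simulated data in which far fewer features changed than were called here. That run does not show how the calls behave in these data. Members, lists and tests were chosen with earlier results of these data known. By rule, the named genes were all members and other family genes, in each list around the T-box factors the 3 highest and 3 lowest called genes without overlap between groups and those listed at 0 or not tested, the most abundant gene of each marker list, and the 3 profiles nearest to the most abundant member of each group. Any other gene was named after its values were seen. Some genes of the lists are counted but not reported here by name. Coding sequences of the longest reading frame were aligned with MAFFT 7.526 through their translation. Protein identity was planned and not computed here. Alternatives covered the pseudocount, scaling, filter, variance model, pairing and each sample left out. Figures were drawn with matplotlib 3.10.9.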

Additional observations from a re-analysis of the deposited data

How the results depend on the processing

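The log2 differences of 9 members (Tbx22, listed at 0 in the placodes, has none) were recomputed under 9 alternatives, and 2 of 81 values changed sign, both of Tbx10, when placode sample 1 (-0.05) or SMG sample 1 (-0.03) was left out. The sizes depend on the pseudocount and, through it, on the scale. Tbx18 differed by -1.68 at a pseudocount of 1, by -4.04 and -5.43 at 0.1 and 0.01, and by -2.66 after rescaling to an equal sum per sample. Tbx15 differed by 1.74, by 2.56 and 2.70, and by 2.28. Members at least 2-fold apart were 2 lower and 0 higher at a minimum mean FPKM of 5, where only Tbx2 and Tbx3 were left. Leaving out either SMG sample gave 4 lower, since Tbx18 then had a mean below 1 FPKM, and the other alternatives run gave 5 lower and 1 higher. With no minimum, 1 of the other T-box family genes was called higher and 1 lower. At a minimum of 5, 1 upstream regulator was called higher and 3 downstream genes were called lower, since fewer genes were tested. The 7 upstream regulators called lower became 6 at that minimum and also under each alternative scaling. Upstream regulators called higher, 2 with all samples, were 1 without either placode sample and 3 without either SMG sample.

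The replicate numbers are shared between cultures and embryos that have no stated link. The deviations of same-numbered samples had a correlation of -0.0348 across features, so the numbers were not taken as pairs. With the replicate number as a block, 4702 features were called higher and 5341 lower, against 4716 and 5333 without the block, and the counts of the T-box lists did not change.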
